A study of Mus musculus with 8 samples.

Results

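The nuclear genes for the subunits of respiratory complexes II to V were compared between gastrocnemius (GAS) muscles with and without knockdown of MYTHO. The genes were chosen by symbol alone: *Sdha* to *Sdhd*, every symbol starting with *Uqcr*, *Cox4* to *Cox8* or *Atp5*, and *Cyc1* and *Cycs*. This gave 49 genes on 50 of the 22206 probe sets of the table, and *Atp5d*, with 2 rows, was read from its brighter row. By complex, 4 genes belonged to complex II, 9 to complex III, 18 to complex IV and 15 to complex V, with cytochrome c (*Cycs*) as 1 more. The last 2, *Atp5s* and *Atp5sl*, match by name but encode no structural subunit.

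MYTHO-KD muscles came from male wild-type C57/Bl6j mice that received an intramuscular AAV of serotype 1 with a sh-RNA against *D230025D16Rik*, the gene for MYTHO, under the U6 promoter. The contralateral leg received the same kind of vector with a scramble sh-RNA, so both groups carried AAV and a hairpin and no uninjected muscle was compared. Mice were about 10 weeks old at injection and 22 weeks old at collection, 12 weeks later, and total RNA of 4 muscles per group was hybridised to Clariom S arrays, which read each gene with 1 or a few sets of short probes. The U6 promoter is active in most cell types, while AAV of this serotype is known to enter muscle fibres well. Which cells carried the hairpin, and what share of the fibres, was not measured here. The columns used hold the average and SD of 4 arrays per group on a log2 scale, so values are given per group and not per muscle. *D230025D16Rik* averaged 7.71 ± 0.66 (SD, n = 4) in MYTHO-KD and 10.02 ± 0.37 in scramble muscles, a difference of -2.31 with an adjusted p of 0.0138 (limma's moderated test).

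Complexes II to V carry out the later steps of oxidative phosphorylation in the inner mitochondrial membrane. Complex II (succinate dehydrogenase) passes electrons from the citrate cycle to ubiquinone, complex III passes them on to cytochrome c, complex IV (cytochrome c oxidase) gives them to oxygen, and complex V (ATP synthase) uses the resulting proton gradient to make ATP. Complexes III, IV and V also hold subunits encoded by mitochondrial DNA, and these were not analysed here. Skeletal muscle uses its own isoforms of some complex IV subunits, and slow and type IIA fibres hold more mitochondria than fast glycolytic fibres.

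Subunit genes of all 4 complexes were mostly higher in MYTHO-KD muscles, by small amounts. The average was higher in MYTHO-KD for 45 of the 49 genes, against 46.9% of all probe sets, and lower for 4, against 51.4% of all probe sets. The median difference of the 49 genes was 0.27 (log2, range -0.18 to 0.85), while that of all probe sets was -0.01. At an unadjusted p under 0.05, 12 of the 49 genes (24.5%) were higher in MYTHO-KD, against a background of 6.48% of all probe sets, and 0 were lower, against 5.52%. With p-values adjusted by Benjamini-Hochberg across the whole table, limma's moderated test called 0 genes higher (background 0.18%) and 0 lower (background 0.0946%), and the smallest adjusted p was 0.146, for *Cox7a1*. No gene reached a 2-fold difference at an unadjusted p under 0.05 (background 0.86% higher and 0.257% lower), and 4 were higher and 0 lower by 1.5-fold or more (background 3.54% higher and 2.25% lower). The count of 12 became 17 when the variance was fitted with a trend on signal and robustly (background 6.65%), 15 without moderation of the variances (background 5.29%) and 14 with unequal variances (background 4.55%). It was 13 with differences centred on the median of all probe sets (background 6.82%), 12 when centred by signal (background 6.63%) and 12 without dim probe sets (background 8.11%). In these 6 settings 0 genes were lower, against backgrounds of 5.58%, 5.21%, 4.47%, 5.16%, 5.26% and 6.23%. With the trend, an adjusted p under 0.05 called 0 of the 49 genes in either direction (background 0.518% higher and 0.333% lower). Of the 95% intervals, 12 lay above zero and 37 spanned it, and 46 of the 49 stayed under a 2-fold rise. In whole muscle RNA, more cells of a type and more RNA per cell cannot be told apart.

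**Figure D1:**
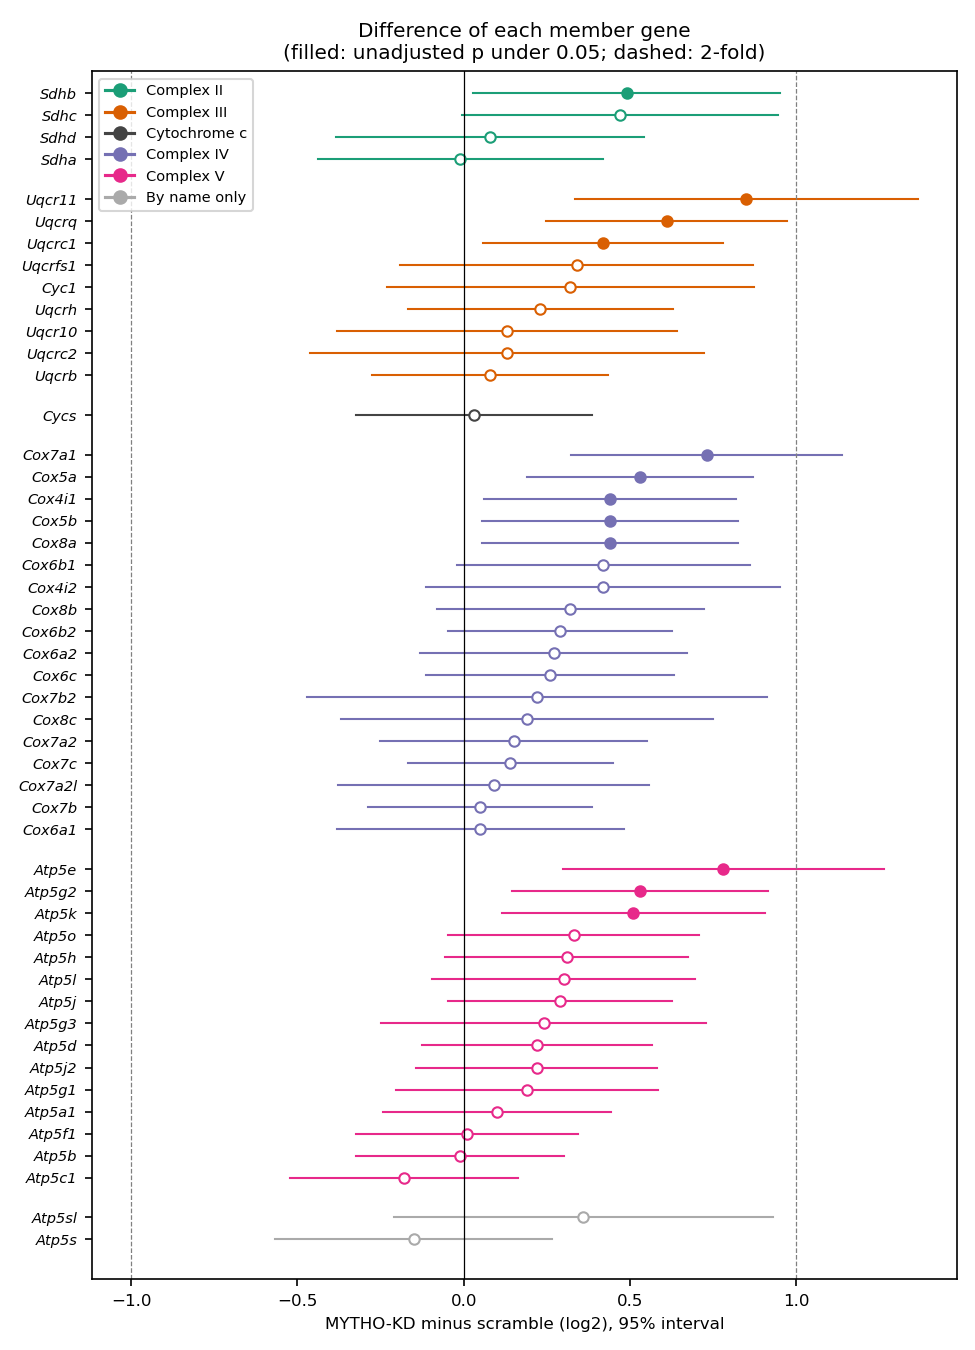
Difference of each of the 49 genes between MYTHO-KD and scramble muscles (x axis, log2, with 95% intervals; 4 arrays per group), ordered within each complex, with filled points for an unadjusted p under 0.05 and dashed lines at a 2-fold difference. The 12 filled points lie between 0.42 and 0.85, and the 4 genes below zero reach no further than -0.18.

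The 4 genes that reached 1.5-fold were *Cox7a1*, *Uqcrq*, *Uqcr11* and *Atp5e*, of complexes IV, III, III and V. The promoters of *Cox7a1*, *Uqcr11* and *Atp5e* were looked at with that of *Cycs*, whose averages were 0.03 apart, because the respiratory genes are known targets of a few shared transcription factors. NRF1 and the ETS factor GABP (NRF2) bind the promoters of many respiratory genes, ERR alpha works with PGC-1 coactivators, and YY1 binds many of the same genes. RefSeq promoter windows (GRCm38.p6, 250 bases before to 50 after the start) were at hand for 35 of the 49 genes, on 38 windows, and *Uqcrq* was not among them. Both strands were searched for CGCATGCG (NRF1), CCGGAAG (the ETS core read by GABP), AAGGTCA (ERR) and AAGATGGCG (YY1), and 0 matches of different motifs overlapped in these windows. The windows of 4 genes are printed 5′ to 3′ along the gene's strand, with any match in capitals. They are *Uqcr11* (chr10:80406772-80407071, minus strand), which holds an NRF1 and an ETS match, *Atp5e* (chr2:174464052-174464351, minus strand), with an ERR and an ETS match, *Cox7a1* (chr7:30183921-30184220, plus strand), with none of the 4 motifs, and *Cycs* (chr6:50566520-50566819, minus strand), with an NRF1 match.
Uqcr11: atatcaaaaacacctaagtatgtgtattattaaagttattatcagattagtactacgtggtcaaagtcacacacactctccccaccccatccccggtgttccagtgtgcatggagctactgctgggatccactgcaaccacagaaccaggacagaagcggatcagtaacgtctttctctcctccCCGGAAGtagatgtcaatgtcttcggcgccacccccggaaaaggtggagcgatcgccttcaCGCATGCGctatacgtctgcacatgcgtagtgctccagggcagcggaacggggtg
Atp5e: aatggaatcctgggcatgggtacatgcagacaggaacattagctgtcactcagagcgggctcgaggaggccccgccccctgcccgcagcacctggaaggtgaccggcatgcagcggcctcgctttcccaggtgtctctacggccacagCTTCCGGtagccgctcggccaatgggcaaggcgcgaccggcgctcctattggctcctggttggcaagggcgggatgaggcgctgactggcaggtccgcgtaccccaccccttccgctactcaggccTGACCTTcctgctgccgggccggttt
Cox7a1: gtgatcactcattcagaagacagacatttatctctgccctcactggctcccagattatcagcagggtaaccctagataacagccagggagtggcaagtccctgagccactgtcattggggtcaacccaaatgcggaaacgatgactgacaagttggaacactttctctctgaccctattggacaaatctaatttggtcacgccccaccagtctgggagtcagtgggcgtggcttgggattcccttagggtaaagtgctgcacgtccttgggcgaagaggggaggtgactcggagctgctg
Cycs: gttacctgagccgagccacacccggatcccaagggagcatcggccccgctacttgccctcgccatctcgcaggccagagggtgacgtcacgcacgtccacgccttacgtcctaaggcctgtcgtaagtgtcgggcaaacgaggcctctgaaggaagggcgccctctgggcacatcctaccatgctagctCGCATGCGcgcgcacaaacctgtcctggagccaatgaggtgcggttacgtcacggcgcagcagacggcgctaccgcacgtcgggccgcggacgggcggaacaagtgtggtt

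The NRF1 motif stood in 8 of the 38 windows (21.1%), against 1.87% of all 32851 RefSeq windows of that length, and the ETS motif in 12 (31.6%), against 8.86%. ERR matched in 5 windows (13.2%, against 4.72%) and YY1 in 2 (5.26%, against 1.40%). Among the 33 structural genes with a window, the median difference was 0.36 for the 8 with an NRF1 match and 0.23 for the 25 without. For the ETS motif it was 0.365 for the 12 genes with a match and 0.22 for the 21 without. It was 0.30 for the 5 genes with an ERR match and 0.26 for the 28 without, and for YY1 it was lower with a match, 0.255 over 2 genes against 0.30 over 31. The ranges overlapped widely, from 0.03 to 0.85 with an NRF1 match and from -0.18 to 0.78 without. For the ETS motif they ran from 0.05 to 0.85 with a match and from -0.18 to 0.73 without. *Atp5j*, *Atp5k*, *Atp5l*, *Cox6a1* and *Uqcr11* held both an NRF1 and an ETS match, so the medians for these motifs are not separate observations. Of the windows printed above, that of *Cox7a1*, with no match, belonged to a gene that differed by 0.73, and that of *Cycs*, with an NRF1 match, to one that differed by 0.03. A match is a string of letters in this window and was not read as a binding site.

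Complex III had the largest median difference of the 4 complexes, 0.32, and each of its 9 genes had a higher average in MYTHO-KD. Among the small subunits, which surround the catalytic core, *Uqcr11* averaged 10.14 ± 0.40 in MYTHO-KD and 9.29 ± 0.35 in scramble, a difference of 0.85 (SE 0.236, adjusted p = 0.168), the largest of the 49 genes. Its promoter is the first one printed above. *Uqcrq*, the ubiquinone-binding small subunit (mm10, chr11:53427922-53430831), averaged 14.38 ± 0.20 against 13.77 ± 0.14, a difference of 0.61 (SE 0.166, adjusted p = 0.159). The other small subunits, *Uqcrh*, *Uqcr10* and *Uqcrb*, differed by 0.23, 0.13 and 0.08. Of the 2 core proteins, which have no redox centre, *Uqcrc1* averaged 15.02 ± 0.15 against 14.60 ± 0.19, a difference of 0.42 (adjusted p = 0.339), and *Uqcrc2* differed by 0.13. The redox subunits *Uqcrfs1*, the Rieske iron-sulphur protein, and *Cyc1*, cytochrome c1, differed by 0.34 and 0.32, and both 95% intervals spanned zero. *Cyc1* had the widest spread of any member in MYTHO-KD, with an SD of 0.52 against 0.28 in scramble. *Cycs*, the soluble carrier between complexes III and IV, averaged 17.61 ± 0.16 and 17.58 ± 0.16, a difference of 0.03 with a 95% interval from -0.32 to 0.38.

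**Figure D2:**
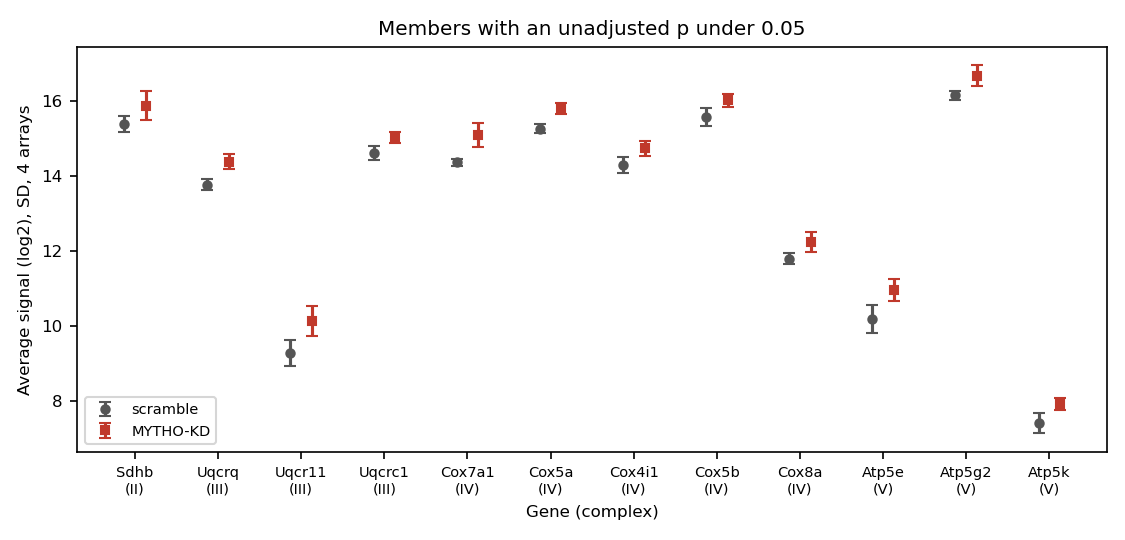
Average log2 signal (y axis, error bars SD, 4 arrays per group) in scramble and MYTHO-KD muscles for the 12 genes with an unadjusted p under 0.05, with each gene's complex in parentheses on the x axis. The MYTHO-KD average lies above the scramble average for each gene, by 0.42 for *Uqcrc1* to 0.85 for *Uqcr11*, and levels of different genes are read by different probes and cannot be ranked.

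In complex IV each of the 18 genes had a higher average in MYTHO-KD, with a median difference of 0.28. *Cox7a1*, the heart and skeletal muscle isoform of subunit 7a, averaged 15.09 ± 0.33 in MYTHO-KD and 14.36 ± 0.10 in scramble, a difference of 0.73 (SE 0.187, 1.66-fold, adjusted p = 0.146). *Cox5a*, a subunit with 1 form in all tissues, averaged 15.79 ± 0.14 against 15.26 ± 0.12, a difference of 0.53 (SE 0.156, adjusted p = 0.197). Both differences were larger than either group's SD. *Cox4i1*, the common form of subunit 4, averaged 14.73 ± 0.19 against 14.29 ± 0.21, and *Cox5b*, *Cox8a* and *Cox4i1* each differed by 0.44. Among the other subunits without a muscle isoform, *Cox6b1* differed by 0.42 (95% interval -0.02 to 0.86), *Cox6c* by 0.26, *Cox7c* by 0.14 and *Cox7b* by 0.05. *Cox7c*, at 19.03 ± 0.01 and 18.89 ± 0.03, was the only member above 19, where probe sets come near the table's highest average of 19.93. *Cox7a2l*, a factor that joins complexes III and IV in supercomplexes, differed by 0.09. The testis isoforms *Cox6b2*, *Cox8c* and *Cox7b2*, with averages between 5.12 and 7.99, differed by 0.29, 0.19 and 0.22.

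The muscle isoforms were set beside their counterparts in other tissues. An exchange between isoforms could move them in opposite directions, or change their ratio while both are higher. For subunit 7a, the muscle form *Cox7a1* differed by 0.73 and the ubiquitous form *Cox7a2* by 0.15, with 12.41 ± 0.30 in MYTHO-KD and 12.26 ± 0.14 in scramble. The 95% interval was 0.32 to 1.14 for *Cox7a1* and -0.25 to 0.55 for *Cox7a2*. For subunit 6a, the muscle form *Cox6a2* averaged 18.84 ± 0.25 against 18.57 ± 0.22, a difference of 0.27, and the ubiquitous form *Cox6a1* averaged 10.09 ± 0.25 against 10.04 ± 0.30, a difference of 0.05. In subunit 8 the order was the other way round. The ubiquitous *Cox8a* averaged 12.24 ± 0.26 against 11.80 ± 0.15, a difference of 0.44 (adjusted p = 0.346), and the muscle form *Cox8b* averaged 14.70 ± 0.29 against 14.38 ± 0.16, a difference of 0.32 (adjusted p = 0.535). *Cox4i2*, an isoform of subunit 4 best known from lung, averaged 5.92 ± 0.38 against 5.50 ± 0.41, close to the dim end of the table. Muscle isoforms had a median difference of 0.32 over 3 genes and ubiquitous ones of 0.15 over 3 genes. No isoform had a lower average in MYTHO-KD, and the difference within a pair was not tested, since both forms are read on the same arrays and that test needs a value per array.

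**Figure D3:**
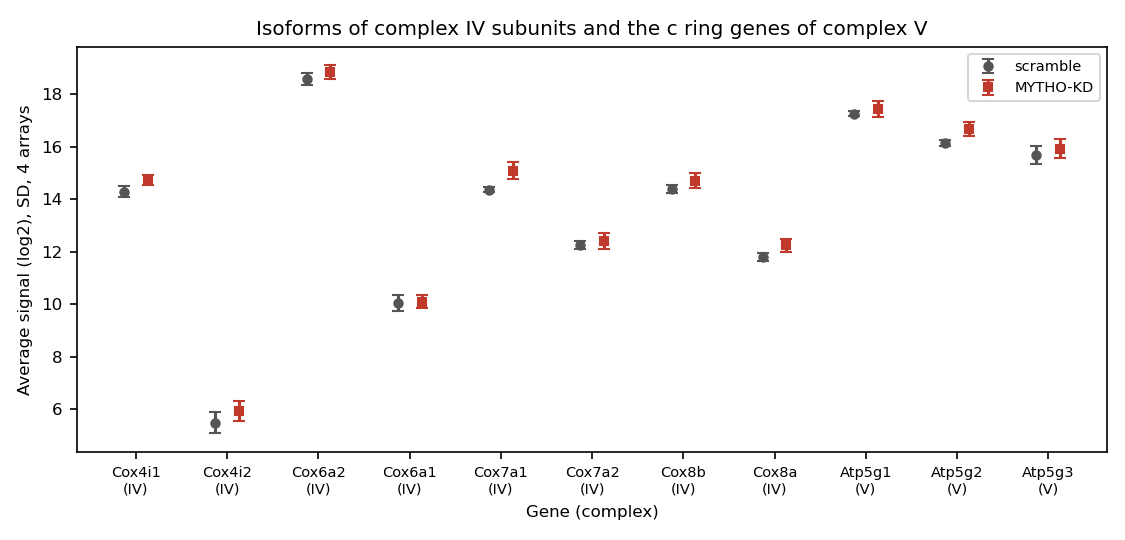
Average log2 signal (y axis, error bars SD, 4 arrays per group) in scramble and MYTHO-KD muscles for the isoforms of complex IV subunits and the 3 genes of the complex V c ring. Each gene is higher in MYTHO-KD, from 0.05 for *Cox6a1* to 0.73 for *Cox7a1*.

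In complex V, 13 of 15 genes were higher and 2 lower in MYTHO-KD (background 46.9% and 51.4%), with a median difference of 0.24 and a range from -0.18 to 0.78. In all, 3 of the 15 genes were higher at an unadjusted p under 0.05 (background 6.48%). *Atp5e*, the epsilon subunit of the central stalk, averaged 10.97 ± 0.29 in MYTHO-KD and 10.19 ± 0.38 in scramble, a difference of 0.78 (SE 0.221, 1.72-fold, adjusted p = 0.179). *Atp5g2*, 1 of 3 genes that encode the same mature c subunit of the proton-driven ring, averaged 16.67 ± 0.27 against 16.14 ± 0.12, a difference of 0.53 (SE 0.176, adjusted p = 0.252). *Atp5k*, a small membrane subunit, averaged 7.93 ± 0.17 against 7.42 ± 0.27, a difference of 0.51 (SE 0.181, adjusted p = 0.288).

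The other c ring genes differed by less than *Atp5g2*. *Atp5g1* averaged 17.44 ± 0.30 against 17.25 ± 0.10, a difference of 0.19, and *Atp5g3* averaged 15.92 ± 0.36 against 15.68 ± 0.33, a difference of 0.24. Peripheral stalk genes, which hold the catalytic head still, differed by 0.33 (*Atp5o*), 0.31 (*Atp5h*), 0.29 (*Atp5j*) and 0.01 (*Atp5f1*), and none had an unadjusted p under 0.05 with the main variance model. With the trend, *Atp5o*, *Atp5h* and *Atp5j* each had one, as did *Atp5h* and *Atp5j* without moderation and *Atp5j* with unequal variances. The membrane subunits *Atp5l* and *Atp5j2* differed by 0.30 and 0.22. The other genes of the F1 head and central stalk all had lower differences than *Atp5e*. The alpha subunit *Atp5a1* differed by 0.10, and the catalytic beta subunit *Atp5b* averaged 18.77 ± 0.05 and 18.78 ± 0.05, a difference of -0.01 with a 95% interval from -0.32 to 0.30. The gamma subunit *Atp5c1* had the lowest difference of the 49 genes, -0.18, with 16.70 ± 0.17 against 16.88 ± 0.09 (95% interval -0.52 to 0.16). *Atp5d*, the delta subunit, differed by 0.22 on its bright probe set and by -0.23 on a second one at 6.52 and 6.75. *Atp5sl* and *Atp5s* differed by 0.36 and -0.15.

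In complex II, which is wholly encoded in the nucleus, 3 of 4 genes were higher and the median difference was 0.275. *Sdhb*, the iron-sulphur subunit, averaged 15.87 ± 0.39 in MYTHO-KD and 15.38 ± 0.21 in scramble, a difference of 0.49 (SE 0.212, adjusted p = 0.386). Of the membrane anchors, *Sdhc* averaged 13.52 ± 0.27 against 13.05 ± 0.38, a difference of 0.47 (adjusted p = 0.421), and *Sdhd* averaged 13.91 ± 0.33 against 13.83 ± 0.30, a difference of 0.08. *Sdha*, the flavoprotein that oxidises succinate, averaged 12.49 ± 0.20 and 12.50 ± 0.33, a difference of -0.01 with a 95% interval from -0.44 to 0.42. *Sdhb* no longer had an unadjusted p under 0.05 without moderation of the variances, with unequal variances or with centring by signal, and *Sdhc* had one with the trend and with both centrings.

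Genes that work beside the subunits gave smaller medians. Complex I subunits, the other nuclear genes of the chain, were higher for 29 of 36 genes with a median of 0.145, and 5 were higher and 0 lower at an unadjusted p under 0.05 (background 6.48% higher and 5.52% lower), with *Ndufa2* at 0.81 and *Ndufa1* at 0.63. Assembly factors of complexes II to V were higher for 31 of the 40 found in the table, with a median of 0.12, and at the same threshold 4 of 40 were higher and 2 of 40 lower, the latter a share near the background of 5.52% (6.48% for higher). The 2 were the complex IV assembly factors *Cox16*, at 13.93 ± 0.39 in MYTHO-KD and 14.70 ± 0.11 in scramble (difference -0.77, adjusted p = 0.152), and *Cox15*, needed to make haem a, at -0.79. *Cox17*, which delivers copper to complex IV, differed by 0.47. The 18 complex IV genes chosen by symbol lay on 1 side of zero and the complex IV assembly factors on both. *Ndufa4*, now placed in complex IV but outside the symbol rule, was lower, at -0.23.

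Of 15 regulators of mitochondrial gene expression, 12 were higher with a median of 0.18, and at an unadjusted p under 0.05 none was higher (background 6.48%) and 1 was lower, near the background of 5.52%. This was *Tfb2m*, a factor for mitochondrial transcription, at -0.41 (adjusted p = 0.289). *Esrra*, the gene for ERR alpha, differed by 0.47 (adjusted p = 0.434). Of 13 citrate cycle enzymes, 8 were higher, 4 lower and 1 at zero, with a median of 0.08 and none past that threshold in either direction, and the lowest p-values belonged to *Suclg2* at -0.41 and *Mdh2* at 0.36. No gene of these 4 lists passed the adjusted threshold. *Usmg5* and *2010107E04Rik*, complex V subunits whose symbols lie outside the rule, differed by 0.25 and 0.14, and *Ndufa4*, now placed in complex IV, by -0.23 (adjusted p = 0.652).

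**Figure D4:**
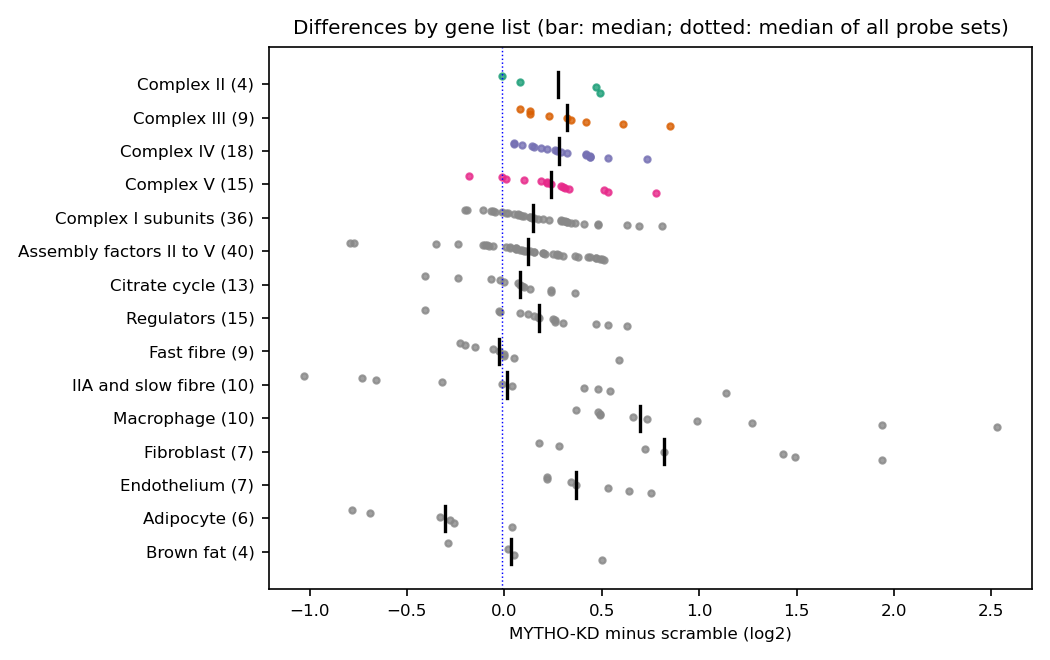
Differences between MYTHO-KD and scramble muscles (x axis, log2) for the genes of each complex, of related mitochondrial lists and of marker lists (y axis, number of genes in parentheses), with 1 point per gene, a bar at each median and a dotted line at the median of all probe sets, -0.01. Medians run from 0.24 to 0.32 in complexes II to V, lie at 0.145 in complex I and 0.08 in the citrate cycle, and reach 0.82 in the fibroblast list.

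Some markers of other cells in the muscle also differed between the groups. Macrophage markers were higher for 10 of 10 genes with a median of 0.695, led by *Cd68* at 2.53 (adjusted p = 0.0182) and *Lyz2* at 1.94 (adjusted p = 0.0277), and their summed level was 12.28 in MYTHO-KD and 11.04 in scramble on the log2 scale. Fibroblast markers were higher for 7 of 7 genes with a median of 0.82, with *Bgn* at 1.94 and *Lum* at 1.49, and both passed the adjusted threshold. The summed level of the fibroblast markers, 17.04 against 16.66, was set mostly by *Dcn* at 16.86 and 16.58. Endothelial markers were higher for 7 of 7, at 14.70 against 14.25, with *Kdr* at 0.75 and *Eng* at 0.64. Adipocyte markers were lower for 5 of 6 genes with a median of -0.305, with *Lep* at -0.33 and *Cfd* at -0.78. The median SD of the list was 1.07 in MYTHO-KD and 1.105 in scramble. None of these adipocyte markers had an unadjusted p under 0.05 in either direction (background 6.48% higher and 5.52% lower). Their summed level, 14.46 against 14.43, was set mostly by *Fabp4* at 14.42 and 14.38. Brown fat markers were higher for 3 of 4, at 6.68 against 6.56. Averages of all 4 lay between 4.08 and 5.27, near the dim end of the table, and *Cidea* and *Elovl3* differed by only 0.05 and 0.02. *Dio2*, at 5.27 in MYTHO-KD and 4.77 in scramble, was the only 1 of the 4 with an unadjusted p under 0.05. It did not pass the adjusted threshold. *Ucp1*, the defining gene of brown fat, was the 1 lower gene, at 4.08 and 4.37, near the table's lowest average of 3.18. The part of these cells in the differences of the subunit genes was not tested.

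Fibre markers were read for the same reason, since fibre types differ in mitochondrial content. Of 9 fast fibre markers, 2 were higher, 5 lower and 2 at zero, with a median of -0.03, and 7 of them stood above 19, with *Myh4* and *Atp2a1* at the table's highest average in both groups. *Myh1*, the type IIX myosin, differed by 0.59, and *Actn3* and *Tnnc2*, which had the lowest differences of the list, by -0.23 and -0.20. Their summed level was 22.58 in MYTHO-KD and 22.61 in scramble. Type IIA and slow markers were higher for 5 and lower for 5 of 10 genes, with a median of 0.015. Their summed level, 20.22 against 19.76, was set mostly by *Myh2*, whose probe set stood next to the table's highest average, and it says little of the other 9 genes. *Myh2*, the type IIA myosin, averaged 19.91 ± 0.01 in MYTHO-KD and 19.50 ± 0.16 in scramble, and *Myoz2*, a Z-disc protein of slow fibres, differed by 1.14. For 7 of the 10 genes the MYTHO-KD muscles had SDs of 1.39 to 3.67, against 0.70 to 1.43 in scramble, with differences from -1.03 to 0.54. The subunit genes had a median SD of 0.25 in MYTHO-KD and 0.20 in scramble. Over all probe sets the median SD was 0.27 in each group. The highest SD of a subunit gene was 0.70, for *Cox7b2* in scramble. The part of fibre type in the differences of the subunit genes was not tested.

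**Figure D5:**
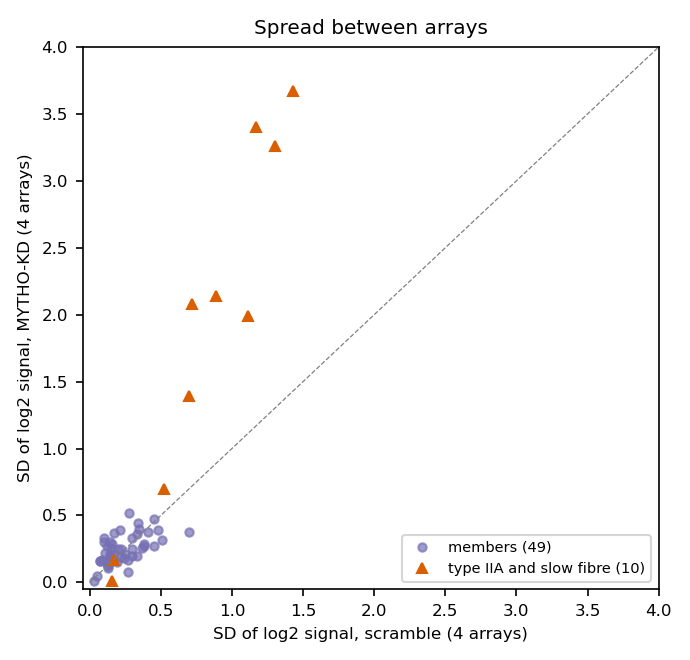
SD of the log2 signal between 4 arrays in MYTHO-KD (y axis) against that in scramble (x axis) for the 49 subunit genes and the 10 type IIA and slow fibre genes, with a dashed line of equal SD. The subunit genes stay at or below 0.52 in MYTHO-KD and 0.70 in scramble, while 7 fibre genes lie between 1.39 and 3.67 in MYTHO-KD.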

How the data were processed

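Total RNA of 8 GAS muscles, 4 per group, was measured on Clariom S arrays. Per the methods, the authors normalised the arrays by SST-RMA in Transcriptome Analysis Console, and the submitters' processing notes name Affymetrix Expression Console and RMA. The deposited table has 22206 probe sets and 28 columns, with decimal commas, on the mm10 annotation, and gives each group's average and SD of log2 signal. Its columns of fold change, p-value and false discovery rate hold the authors' own comparison and were not used. From the averages and SDs, limma's moderated test was computed in R 4.3.3 (limma 3.58.1; pooled variance, 6 residual and 5.85 prior degrees of freedom, prior SD 0.284), p-values adjusted by Benjamini-Hochberg across the whole table, and was tested on simulated data. Differences are MYTHO-KD minus scramble, and p-values are two-sided. Counts of genes were read at an unadjusted p under 0.05.

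Groups were taken from the labels. The muscles of a mouse served as both groups, but the columns used give no value per muscle, so legs were not paired and the p-values take the groups as independent. Array number limits the precision. Values were given in full for complex IV isoforms, c ring genes and the 3 genes with the lowest p in each complex (20 genes in all), and for the targeted gene. Other genes were named to account for every member. Of the other lists the 2 genes with the lowest p were named, and *Cox15*, *Dcn*, *Fabp4*, *Myh4*, *Atp2a1* and *Tnnc2* were added after their values were seen. The genes and lists were chosen with earlier results of these data known, so their counts are descriptions. Alternatives varied the variance model, centring, the filter on dim probe sets, the row of *Atp5d*, the members and the threshold. Motifs were searched in RefSeq promoter windows of GRCm38.p6. Coordinates of windows are 1-based. Mitochondrially encoded subunits were not analysed here.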

Additional observations from a re-analysis of the deposited data

How the results depend on the processing

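The count of 12 genes higher at an unadjusted p under 0.05 ran from 12 to 17 under the other variance models, centrings, filter and choices of row and members, with 17 under a variance trend with signal and robust fitting (background 6.65%), 15 without moderation and 14 with unequal variances. It was 0 at an adjusted p, 0 at 2-fold, 4 at 1.5-fold, and 0 at an adjusted p with the trend, an alternative chosen after seeing the data, where the smallest adjusted p was 0.0510, for *Cox7a1*. The count of genes lower stayed at 0, and the median difference ran from 0.265 to 0.28. Of the 12 genes, 10 were called in every variance and centring setting. The exceptions were *Sdhb*, without moderation, with unequal variances and when centred by signal, and *Uqcrc1*, when centred by signal. Genes gained were *Sdhc*, *Atp5h*, *Atp5j*, *Atp5o* and *Cox6b1* with the trend, *Atp5j*, *Cox6b2* and *Cox7c* with unequal variances and, with *Atp5h*, also without moderation, *Sdhc* by both centrings, and *Cox6b2* when centred by signal. Why these calls moved was not tested. Of the 8 complex IV isoforms, 3 (*Cox7a1*, *Cox8a* and *Cox4i1*) were higher at an unadjusted p under 0.05 (background 6.48%). That count stayed at 3 with the trend (background 6.65%), without moderation (background 5.29%) and when centred by signal (background 6.63%).

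No paired analysis was possible because the columns used hold group averages and SDs with no value per muscle. For the same reason a replicate block and leaving out each replicate were not run, and whether 1 muscle decides a difference is unknown. Arrays give no depth, and members near the dim end (*Cox6b2*, *Cox4i2*, *Cox7b2*) or above 19 (*Cox7c*) are read near the limits of the array's range.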
